A study of Mus musculus with 6 samples.

Results

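The transcripts of 10 genes of the BCL2 family, survival and death genes of the mitochondrial pathway of apoptosis, were followed in mouse cDNT with and without IL-10. They are Bcl2, Bcl2l1 (BCL-xL) and Mcl1 for survival, Bax and Bak1 for the effectors, and Bcl2l11 (BIM), Bad, Bid, Bbc3 (PUMA) and Pmaip1 (NOXA) for the BH3-only proteins. They were chosen by name and role, with earlier results of these data known. All 10 were among the 29393 genes of the count table, and all 10 were among the 14916 genes tested, those with 10 or more counts in 3 or more libraries.

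The BCL2 family sets the threshold at which a cell enters mitochondrial apoptosis. Its survival proteins (BCL-2, BCL-xL and MCL-1) hold the effectors BAX and BAK in check, and active effectors open the outer mitochondrial membrane and release cytochrome c, which starts the caspase cascade. BH3-only proteins (BIM, BAD, BID, PUMA and NOXA) sense stress or loss of growth factor and act by occupying the survival proteins, some of them also by activating the effectors directly. In T cells BCL-2 and MCL-1 are known as the main survival proteins kept up by cytokines, and BIM as the main death signal after an immune response.

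The cells were cDNT, T cells without surface CD4 and CD8 that the study's methods describe as made in culture from CD4+CD25- T cells of CD45.1-positive C57BL/6 mice by coculture with IL-2 and mature dendritic cells of C57BL/6 mice, followed by sorting. The sample labels give adult C57BL/6 mice, spleen, and sorted DNT cells. One group received IL-10 at 50 ng/ml for 24 h (W/ IL-10, 3 libraries) and the other no IL-10 (W/O IL-10, 3 libraries). The methods add anti-CD3/CD28 antibodies in the culture, which the labels do not mention, and do not say outright that the W/O IL-10 cells received them. The series itself mentions sequencing in duplicate, although 3 libraries are listed in each group. No source says whether the libraries of a group came from separate cultures or mice, so the p-values measure the spread between these libraries, which may be technical. The transcripts were measured to ask how IL-10 changes the survival of cDNT.

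The libraries W/O IL-10 held 22953260 to 23967088 counts and those W/ IL-10 held 21619420 to 22958891, and a member had 409 to 8691 counts in a library. T cell transcripts were abundant, with the 7 T cell markers summing to 2752 to 3168 CPM (counts scaled to a common library total, with TMM-scaled library sizes) W/O IL-10 and 3581 to 3664 CPM W/ IL-10. Cd4 was at 0.351 to 1.55 CPM, whereas Cd8a was at 95.8 to 169 CPM and Cd8b1 at 32.6 to 66.6 CPM, so the label's lack of CD8 was not matched at the transcript level. Cd8b1 was called higher W/ IL-10 (log2 fold change 0.67, adjusted p = 0.0306 in edgeR). Cd8a was also higher in every W/ IL-10 library (log2 fold change 0.56, adjusted p = 0.0369 in edgeR). Its fold change of 1.48 was just short of the 1.5 needed for a call. The 9 dendritic cell markers in the table summed to 37.1 to 40.8 CPM W/O IL-10 and 55.05 to 63.7 CPM W/ IL-10, with 1 of the 6 tested called (Itgax, log2 fold change 1.09, adjusted p = 0.00383 in edgeR) and Clec9a and Siglech at or under 3 counts in every library. The median log2 fold change of those 6 markers was -0.42. Fscn1 (-1.71) and Zbtb46 (-0.44) were lower in every W/ IL-10 library, and Xcr1 (0.60) and Itgax were higher in every one. Itgax made up most of the rise of the sum, with means of 20.4 CPM W/O IL-10 and 43.2 CPM W/ IL-10. The 5 B cell markers summed to 62.3 to 153 CPM W/O IL-10 and 59.4 to 106 CPM W/ IL-10, and the 9 macrophage markers to 26.7 to 35.3 and 31.1 to 34.4 CPM, with Mertk at or under 3 counts in every library. The median log2 fold change was -0.50 over the 5 B cell markers and -0.58 over the 4 macrophage markers tested, of which Cd68 (0.32) made up most of the sum, and no B cell or macrophage marker was called. The part of these other cells in the values below was not tested. In such bulk RNA, fewer cells of a type and less RNA per cell cannot be told apart.

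None of the 10 members was differentially expressed by the rule used here, an adjusted p-value under 0.05 and a fold change of at least 1.5 in edgeR's quasi-likelihood test, which 1.45% of all tested genes met. None had an adjusted p-value under 0.05 at any fold change, against 2.19% of all genes. At an unadjusted p-value under 0.05 there was 1 member higher W/ IL-10 (Pmaip1) and 4 lower (Bcl2l1, Bax, Bid and Bbc3), where 14.7% of all genes passed, 7.58% higher and 7.17% lower. DESeq2 called 1 member, Pmaip1, against 2.39% of all genes, and gave an adjusted p-value under 0.05 for Pmaip1 and Bbc3, against 4.5% of all genes. With no filter on low counts the same 1 member was called, against 2.17% of all genes, and the same 2 had an adjusted p-value under 0.05, against 4.22%. The 3 libraries of a group did not overlap with those of the other for 2 members that were higher W/ IL-10 (Mcl1 and Pmaip1) and 4 that were lower (Bcl2l1, Bax, Bid and Bbc3), where 22.6% of all tested genes did not overlap, 11.3% higher and 11.2% lower. On the TPM scale, which a single very short gene distorts in these libraries, only Bcl2l1 and Bbc3 did not overlap, against 10.2% of all genes. The median log2 fold change (W/ IL-10 over W/O IL-10) was -0.04 over the 10 members and 0.01 over all tested genes. The 95% interval of the fold change excluded 1.5-fold in either direction for 9 members, with Pmaip1 as the exception.

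**Figure D1:**
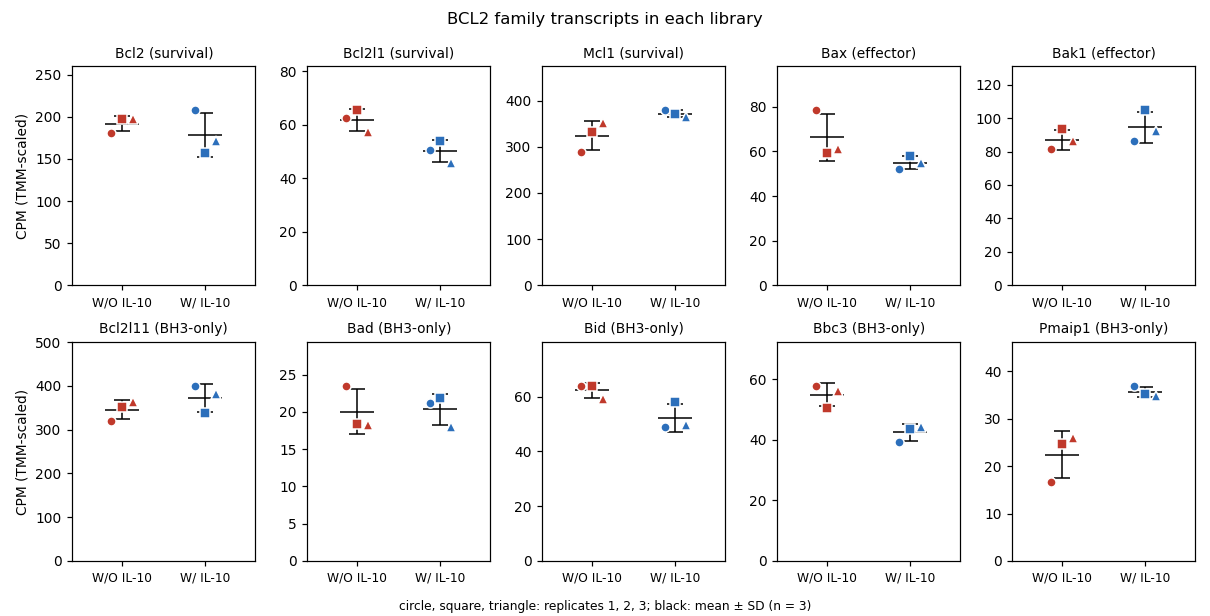
CPM (TMM-scaled, each axis starting at 0) of the 10 members in each of the 3 libraries W/O IL-10 (red) and W/ IL-10 (blue), with the mean and SD in black. The groups are apart for Bcl2l1, Mcl1, Bax, Bid, Bbc3 and Pmaip1 and overlap for Bcl2, Bak1, Bcl2l11 and Bad.

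Promoter sequence is given first, since FOXO factors are known to act on Bcl2l11 and Bbc3, and STAT factors on Bcl2l1. Whether these factors acted on the members in these cells was not tested. RefSeq windows on GRCm38.p6 from 250 bases before to 50 bases after each transcript start were found for 9 of the 10 members, 15 windows in all, and both strands were searched. The FOXO motif TGTTTAC was in 2 of these windows (Bcl2l11 and Bbc3) and in 3.65% of all 32851 windows. The STAT motif TTCNNNGAA was in 0 of the 15 windows and in 8.3% of all. The form whose gap is 1 base longer was in 1 (Bcl2l1) and in 6.95% of all. The E-box CACGTG was in 2 (Bax and Bbc3) and in 7.15% of all. The p53 motif was in 0 and in 0.0731% of all. A match is a string of letters and not a bound site, and no match says only that these letters were not in these windows. The following runs are shown 5′ to 3′ on the strand of the gene with the match in capitals. The first is the stretch of 250 bases just before the Bcl2l11 start, which was 72.0% GC and overlapped no exon, and the match, read on the other strand, lies at -227 to -221 from the start. The other FOXO match lies at -167 to -161 from a Bbc3 start and the Bbc3 E-box at -64 to -59 from a Bbc3 start, both within the gene and outside its annotated exons. Bax holds 2 E-boxes in its window. The shown one lies at -9 to -4 from a start, just before the Bax gene as annotated. The other lies at 36 to 41 counted from 1 at the start. The Bcl2l1 match spans a start. The runs of bases around these matches overlap, at least in part, stretches that GENCODE annotates as UTR exons of these genes.
Bcl2l11, FOXO, chr2:128125788-128126037 (+): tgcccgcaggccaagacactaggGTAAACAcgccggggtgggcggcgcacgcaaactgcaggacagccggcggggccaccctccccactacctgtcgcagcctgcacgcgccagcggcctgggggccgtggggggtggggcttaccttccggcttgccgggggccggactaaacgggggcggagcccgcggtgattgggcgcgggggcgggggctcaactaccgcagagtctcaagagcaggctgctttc
Bbc3, FOXO, chr7:16310083-16310112 (+): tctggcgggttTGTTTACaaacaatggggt
Bbc3, E-box, chr7:16310355-16310384 (+): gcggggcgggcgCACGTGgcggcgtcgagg
Bax, E-box, chr7:45466890-45466919 (-): agcgatgatgatCACGTGactagtcctgcg
Bcl2l1, STAT with the longer gap, chr2:152828474-152828503 (-): tgagtgctttTTCTTCAGAAtcctgctcgc

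Among the survival genes, Bcl2 (ENSMUSG00000057329, GRCm38 chromosome 1, 106538178 to 106714274, minus strand) encodes the founding member, which holds BIM and BAX at the mitochondrion. It was at 181, 197 and 197 CPM in replicates 1, 2 and 3 W/O IL-10 and at 208, 156 and 171 CPM in W/ IL-10 replicates 1, 2 and 3. The groups overlapped, since W/ IL-10 replicate 1 was the highest of the 6 libraries and the other two were the lowest. The means were 192 ± 9.29 and 178 ± 26.5 CPM (SD, n = 3), with a log2 fold change of -0.11 (SE 0.11, 95% interval -0.35 to 0.14, adjusted p = 0.695 in edgeR). It was -0.23 without W/ IL-10 replicate 1 and -0.02 without W/ IL-10 replicate 2. Of its exon bases, 6.09% lie under a transcript on the other strand (D630008O14Rik), and whether the counting used strand is not given in the sources used here.

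Bcl2l1 (ENSMUSG00000007659, chromosome 2, 152780668 to 152831728, minus strand) encodes BCL-xL, which activated T cells raise. It was at 62.4, 65.5 and 57.2 CPM in the 3 libraries W/O IL-10 and at 50.8, 53.9 and 45.7 CPM in those W/ IL-10. Every W/ IL-10 library was below every W/O IL-10 library. The log2 fold change was -0.30 (SE 0.09, 95% interval -0.50 to -0.10, adjusted p = 0.151 in edgeR). The lower end of the interval is a 1.42-fold lower level.

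Mcl1 (ENSMUSG00000038612, chromosome 3, 95658788 to 95663176, plus strand) encodes a short-lived survival protein that lymphocytes depend on. It was at 289, 333 and 351 CPM W/O IL-10 and at 379, 371 and 364 CPM W/ IL-10. All 3 libraries W/ IL-10 were above those W/O IL-10, and W/O IL-10 replicate 1 was the lowest. The means were 324 ± 32.2 and 372 ± 7.74 CPM (SD, n = 3), and the log2 fold change was 0.20 (SE 0.09, 95% interval -0.01 to 0.40, adjusted p = 0.357 in edgeR) and 0.11 without W/O IL-10 replicate 1.

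Of the effectors, Bax (ENSMUSG00000003873, chromosome 7, 45461697 to 45466898, minus strand) encodes the pore former that moves to mitochondria from the cytosol. It was at 78.5, 59.4 and 61.0 CPM W/O IL-10 and at 52.1, 57.8 and 54.8 CPM W/ IL-10. The groups did not overlap, but W/O IL-10 replicate 1 stood well above the other libraries, and the closest libraries of the 2 groups were 59.4 and 57.8 CPM. The log2 fold change was -0.27 (SE 0.11, 95% interval -0.53 to -0.02, adjusted p = 0.307 in edgeR) and -0.14 without that library. Of its exon bases, 12.18% are shared with Gm45808 on the same strand.

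Bak1 (ENSMUSG00000057789, chromosome 17, 27019810 to 27029009, minus strand) encodes the effector that sits in the outer mitochondrial membrane. It was at 81.3, 93.4 and 86.0 CPM W/O IL-10 and at 86.4, 105 and 92.5 CPM W/ IL-10. The groups overlapped, and the log2 fold change was 0.12 (SE 0.09, 95% interval -0.09 to 0.33, adjusted p = 0.588 in edgeR). It was 0.04 without W/ IL-10 replicate 2, 0.07 without W/O IL-10 replicate 1 and 0.21 with a correction for GC content and length. Ggnbp1 covers 25.51% of its exon bases on the other strand.

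Of the BH3-only genes, Bcl2l11 (ENSMUSG00000027381, chromosome 2, 128126038 to 128162547, plus strand) was the most abundant. It was at 321, 353 and 363 CPM W/O IL-10 and at 400, 337 and 381 CPM W/ IL-10, with overlap of the groups. The log2 fold change was 0.11 (SE 0.09, 95% interval -0.10 to 0.32, adjusted p = 0.629 in edgeR). It was 0.05 without W/O IL-10 replicate 1, 0.06 without W/ IL-10 replicate 1 and 0.18 without W/ IL-10 replicate 2.

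Bad (ENSMUSG00000024959, chromosome 19, 6941861 to 6951899, plus strand) encodes a BH3-only protein that survival kinases inactivate by phosphorylation. It was at 23.5, 18.4 and 18.3 CPM W/O IL-10 and at 21.1, 21.9 and 18.0 CPM W/ IL-10. The highest and the lowest library were in different groups, with overlap, and the log2 fold change of 0.02 (SE 0.13, 95% interval -0.28 to 0.32, adjusted p = 0.963 in edgeR) changed sign in 5 of 14 alternative analyses. Gpr137 covers 20.48% of its exon bases on the other strand.

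Bid (ENSMUSG00000004446, chromosome 6, 120891930 to 120916853, minus strand) encodes the protein that caspase-8 cleaves to link death receptors to mitochondria. It was at 63.8, 64.0 and 59.1 CPM W/O IL-10 and at 48.8, 58.0 and 49.6 CPM W/ IL-10. The groups did not overlap, with W/ IL-10 replicate 2 close to the lowest library W/O IL-10. The log2 fold change was -0.26 (SE 0.09, 95% interval -0.46 to -0.05, adjusted p = 0.218 in edgeR). Bcl2l13 covers 17.69% of the exon bases on the other strand.

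Bbc3 (ENSMUSG00000002083, chromosome 7, 16308393 to 16318205, plus strand) encodes PUMA, a target of p53 and of FOXO factors that binds all the main survival proteins. It was at 57.8, 50.6 and 56.1 CPM W/O IL-10 and at 39.4, 43.5 and 44.3 CPM W/ IL-10. All W/ IL-10 libraries were lower. The means were 54.8 ± 3.76 and 42.4 ± 2.64 CPM (SD, n = 3), and the log2 fold change was -0.37 (SE 0.09, 95% interval -0.57 to -0.17, adjusted p = 0.0733 in edgeR). The adjusted p-value was 0.0254 in DESeq2 and 0.0129 with no filter on low counts, but 0.257 under the GC and length correction, with a log2 fold change of -0.22.

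Pmaip1 (ENSMUSG00000024521, chromosome 18) encodes NOXA, which binds MCL-1 and promotes its degradation. It was at 16.7, 24.7 and 25.9 CPM W/O IL-10 and at 37.0, 35.2 and 34.9 CPM W/ IL-10. All 3 libraries W/ IL-10 were above the highest W/O IL-10, and W/O IL-10 replicate 1 was the lowest of all. The means were 22.5 ± 5.01 and 35.7 ± 1.12 CPM (SD, n = 3), a fold change of 1.59 (log2 0.67, SE 0.15, 95% interval 0.32 to 1.02, adjusted p = 0.0700 in edgeR). The adjusted p-value was under 0.05 in 5 of 14 alternative analyses. It was 0.00364 in DESeq2 (log2 fold change 0.66), 4.23e-06 with no filter on low counts (0.66) and 0.0294 after the correction for GC content and length (0.55), where 3.6% of all genes passed. It was 0.0139 with that correction and the replicate number as a block (0.56), where 5.68% of all genes passed, and 0.0118 without W/O IL-10 replicate 1 (0.48), where 3.58% passed. It was highest, at 0.231, without W/ IL-10 replicate 3.

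**Figure D2:**
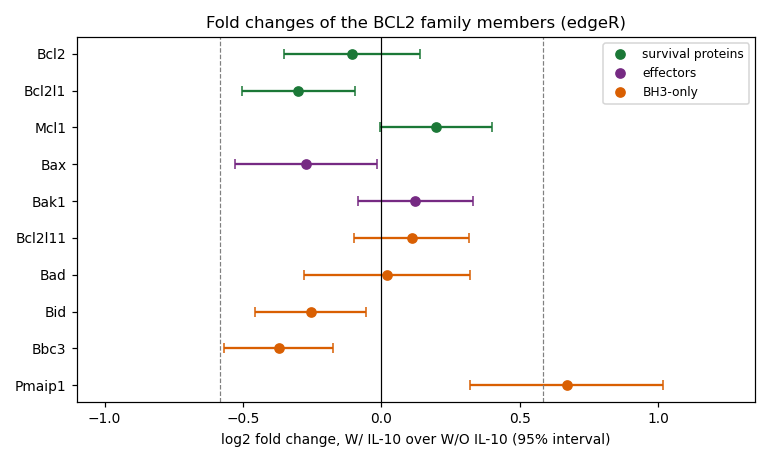
Log2 fold change W/ IL-10 over W/O IL-10 of each member (point) with its 95% interval (bar) from edgeR, colored by role, with dashed lines at a fold change of 1.5 in each direction. Pmaip1 alone has an interval that crosses a dashed line, from 0.32 to 1.02.

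The levels of different genes were compared as CPM per kilobase of exon, over all 6 libraries. Mcl1 was the most abundant member at 102 ± 9.73 CPM per kilobase (SD, n = 6) and did not overlap with the next, Bcl2l11, at 44.7 ± 3.60. Bcl2l11 overlapped with Bax (38.5 ± 5.92), and Bax with Bak1 (37.7 ± 3.41). Below Bak1 there was a gap without overlap to Bbc3 at 22.9 ± 3.49, followed by Bcl2 at 20.2 ± 2.10, Bid at 16.1 ± 1.87, Bcl2l1 at 12.2 ± 1.61, Pmaip1 at 10.6 ± 2.91 and Bad at 7.89 ± 0.903, each of which overlapped with the next. With the length of the longest transcript in place of the exon length, Pmaip1 and Bad exchanged places, and the other ranks were as given. The order also differed by group, since Bax was above Bak1 W/O IL-10 (means of 42.1 and 36.1) and below it W/ IL-10 (34.8 and 39.3), and Bcl2l1 was above Pmaip1 W/O IL-10 (13.5 and 8.22) and below it W/ IL-10 (10.9 and 13.1).

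By role, the survival genes held 39.0, 42.8 and 43.3% of the summed level of the 10 members (CPM per kilobase) in replicates 1, 2 and 3 W/O IL-10 and 45.6, 43.2 and 43.5% W/ IL-10. The effectors held 27.7, 24.5 and 23.6% W/O IL-10 and 21.7, 25.2 and 23.6% W/ IL-10. The BH3-only genes held 33.3, 32.7 and 33.2% and then 32.7, 31.5 and 32.9%. The groups overlapped for each role, and W/O IL-10 replicate 1 had the lowest survival share and the highest effector share. The sum of the 10 members was 302 to 316 CPM per kilobase W/O IL-10 and 310.4 to 318 W/ IL-10.

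Ratios of a survival gene to a death gene within a library do not depend on the scaling of libraries, and are given as counts per exon length, as a description with no test. Mcl1 to Pmaip1, a pair whose proteins bind each other, was 13.8, 10.8 and 10.8 W/O IL-10 and 8.20, 8.43 and 8.33 W/ IL-10, lower in every W/ IL-10 library. Bcl2l1 to Bak1 was 0.403, 0.368 and 0.349 and then 0.308, 0.270 and 0.259, also without overlap. Bcl2l1 to Bad was 1.48, 1.99 and 1.75 and then 1.34, 1.37 and 1.42, and Bcl2 to Bcl2l11 was 0.495, 0.490 and 0.476 and then 0.455, 0.407 and 0.393. These 4 ratios were lower W/ IL-10 without overlap, by 0.49, 0.42, 0.33 and 0.22 on the log2 scale in the order given. The share of gene pairs at large without overlap was not computed, and 3 of these ratios hold Bcl2l1 or Pmaip1, whose own groups did not overlap. Not all pairs of a survival and a death gene are shown, and some of the others went the other way. Mcl1 was higher and Bax, Bid and Bbc3 were lower in every W/ IL-10 library. The ratio of Mcl1 to each of these was therefore higher W/ IL-10 without overlap.

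The other 3 ratios overlapped between groups. Bcl2 to Bax was 0.397, 0.572 and 0.556 W/O IL-10 and 0.686, 0.466 and 0.536 W/ IL-10. Bcl2l1 to Bcl2l11 was 0.341, 0.325 and 0.276 and then 0.222, 0.280 and 0.210. Mcl1 to Bak1 was 2.50, 2.51 and 2.88 and then 3.09, 2.49 and 2.77.

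**Figure D3:**
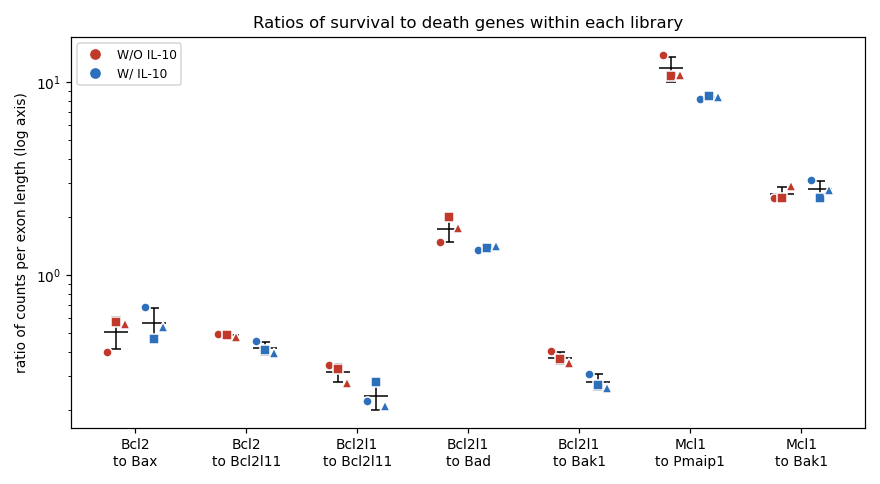
Ratio of a survival gene to a death gene in counts per exon length (log axis) in each library W/O IL-10 (red) and W/ IL-10 (blue), circles, squares and triangles for replicates 1, 2 and 3, with mean and SD in black. Mcl1 to Pmaip1 lies at 10.8 to 13.8 in the red libraries and at 8.20 to 8.43 in the blue ones, while Bcl2 to Bax and Mcl1 to Bak1 overlap.

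The fold changes of all genes varied with the GC content of their transcripts, and the members spread over this range. The median log2 fold change of tested genes was 0.24 at up to 40% GC, 0.11 at 40 to 45%, 0.01 at 45 to 50%, -0.04 at 50 to 55%, -0.08 at 55 to 60% and -0.13 above 60%. Pmaip1 was at 42.1% GC, Bid at 51.3%, Bcl2l1 at 55.9%, Bax at 63.5% and Bbc3 at 65.2%, and the fold change of each of these 5 had the sign of the median of its range, as did those of Mcl1 (48.7%) and Bcl2l11 (48.0%). Bak1 and Bad, both at 57.1%, and Bcl2, at 46.3%, had the opposite sign. Over the 543 genes above 60% GC, the median deviation from the mean of the 6 libraries was 0.15 on the log2 scale in W/O IL-10 replicate 1 and -0.12 in W/ IL-10 replicate 1, and -0.04 to 0.04 in the other libraries. After the correction for GC content and length the log2 fold change was 0.55 for Pmaip1, -0.12 for Bax, -0.22 for Bbc3, -0.19 for Bcl2l1 and -0.20 for Bid. It was 0.21 for Mcl1, which at 48.7% GC lies where the median of all genes was near 0, 0.21 for Bak1, 0.12 for Bad, 0.14 for Bcl2l11 and -0.11 for Bcl2. GC content was not corrected for on its own, and its part in the members' values was not tested.

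**Figure D4:**
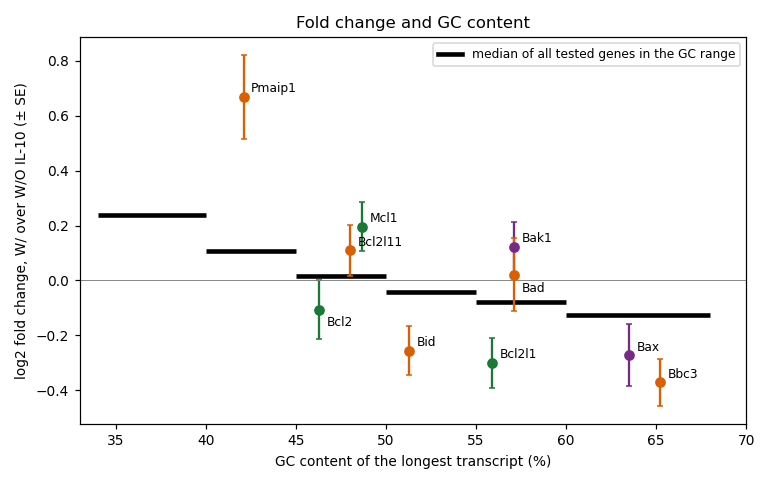
Log2 fold change W/ IL-10 over W/O IL-10 (± SE, edgeR) of each member against the GC content of its longest transcript in percent, colored by role (green survival, purple effector, orange BH3-only), with black bars for the median of all tested genes in each range of GC. The outer bars stand for all genes up to 40% and above 60%, and the medians go from 0.24 to -0.13 as GC rises.

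Around the members, 53 further genes of the pathway were read from the same test, of which 46 were tested. They had a median log2 fold change of 0.03. Pim2 was called, against 1.45% of all genes, and Pim2, Pim1 and Foxo3 had an adjusted p-value under 0.05, against 2.19% of all genes. At an unadjusted p-value under 0.05 there were 10 higher and 7 lower W/ IL-10, against 14.7% of all genes in both directions.

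Among the 22 regulators of members (all tested, median log2 fold change 0.02), Pim2, a survival kinase that phosphorylates BAD, rose most. It was at 95.1, 80.7 and 81.2 CPM W/O IL-10 and at 239, 236 and 226 CPM W/ IL-10 (log2 fold change 1.45, SE 0.09, adjusted p = 0.000248 in edgeR). Its adjusted p-value was under 0.05 in 14 of 14 alternatives, with log2 fold changes of 1.40 to 1.53. Its relative Pim1, a known target of STAT factors, was at 287, 254 and 248 CPM and then at 376, 382 and 375 CPM (log2 fold change 0.52, SE 0.08, adjusted p = 0.0190 in edgeR). The transcription factor Foxo3, which activates Bcl2l11 and Bbc3 in cells without growth factor, fell from 75.2, 78.8 and 77.8 CPM to 56.9, 57.3 and 59.9 CPM (log2 fold change -0.41, SE 0.07, adjusted p = 0.0222 in edgeR). Pim1 and Foxo3 each passed in 9 of 14 alternatives and did not pass when any library other than W/O IL-10 replicate 1 was left out, with adjusted p-values up to 0.112 and 0.110. Ywhaz, a 14-3-3 protein that binds phosphorylated BAD, had the highest level per length of the list. It was at 531, 587 and 605 CPM and then at 668, 695 and 684 CPM (log2 fold change 0.25, adjusted p = 0.197 in edgeR). Gm26885 covers 14.52% of the exon bases of Pim1 on the other strand. Of the 50-base stretches of Ywhaz, 15.18% occur in other transcripts.

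Of the 6 other survival genes 3 were tested. Bcl2a1d, which encodes a form of A1, had both the smallest p-value and the highest level per length of that list, at 43.1, 37.8 and 36.9 CPM and then at 54.7, 51.6 and 48.9 CPM, without overlap (log2 fold change 0.40, adjusted p = 0.0671 in edgeR). Its adjusted p-value was under 0.05 in 5 of 14 alternatives, 0.0158 in DESeq2 among them. Of its 50-base stretches, 79.48% occur in other transcripts, mainly its near-identical copies Bcl2a1a and Bcl2a1b, so its reads could be split among them. Bcl2a1a, at only 0.394 to 1.82 CPM, went the other way, with overlap (log2 fold change -0.97, adjusted p = 0.332 in edgeR). Of the 4 other death genes 2 were tested, and Bmf, a BH3-only gene, was at 13.3, 9.10 and 13.2 CPM and then at 9.62, 7.06 and 8.90 CPM, with overlap (log2 fold change -0.48, adjusted p = 0.273 in edgeR). Of 6 further family members 4 were tested. No p-value of theirs in edgeR was under 0.05 even before adjustment, where 14.7% of all genes passed. Bnip3l, a receptor for mitophagy, had the highest level per length of these (log2 fold change 0.04). Bnip3 had the smallest p-value (log2 fold change -0.17, adjusted p = 0.619 in edgeR). Of their 50-base stretches, 20.76% for Bnip3l and 36.95% for Bnip3 occur in other transcripts.

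Of 15 genes that act downstream of the outer membrane, all were tested. None had an adjusted p-value under 0.05 in edgeR, against 2.19% of all genes. At an unadjusted p-value under 0.05 there were 4 higher and 1 lower, against 7.58% and 7.17% of all genes. The median log2 fold change of the 15 genes was 0.08. Cflar, which blocks caspase-8 at death receptors, had the smallest p-value, at 128, 130 and 143 CPM and then at 183, 149 and 164 CPM, without overlap (log2 fold change 0.31, SE 0.09, adjusted p = 0.153 in edgeR). It passed in 1 of 14 alternatives. Cycs, the gene of cytochrome c, was at 80.9, 75.9 and 75.4 CPM and then at 102, 97.4 and 83.4 CPM, also without overlap (log2 fold change 0.29, SE 0.09, adjusted p = 0.168 in edgeR). Of its 50-base stretches, 26.15% occur in other transcripts, pseudogenes among them, and its log2 fold change was as low as 0.10 among the alternatives.

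**Figure D5:**
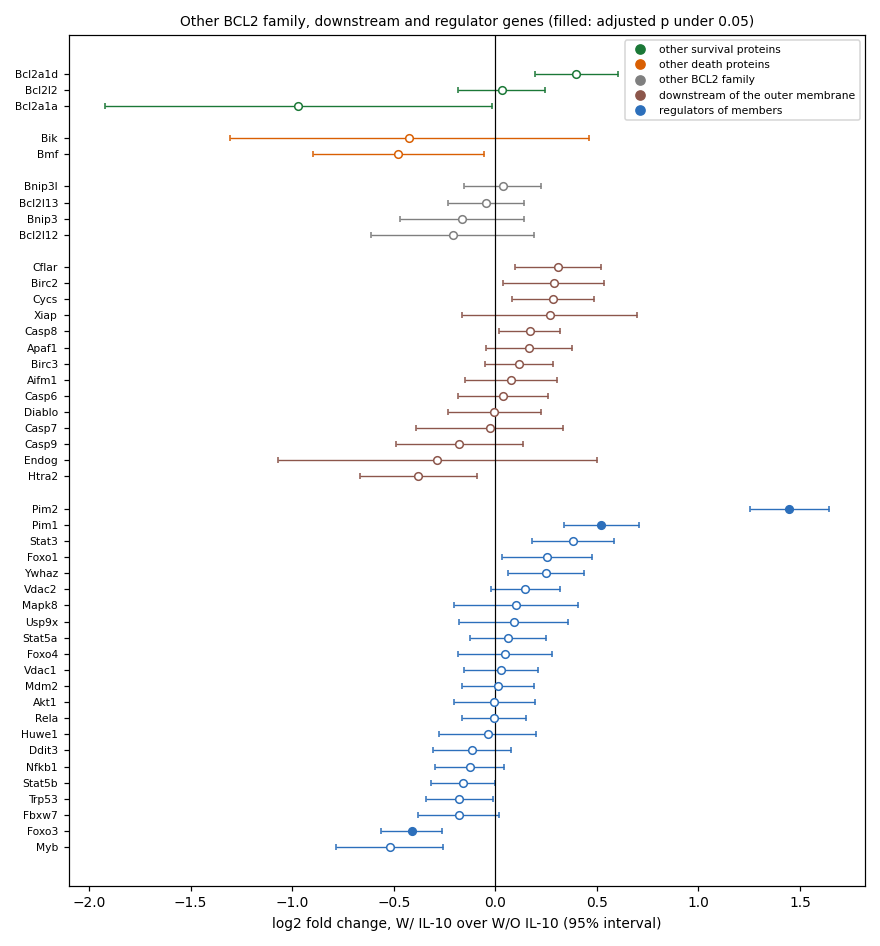
Log2 fold change W/ IL-10 over W/O IL-10 with its 95% interval (edgeR) for tested genes of the 5 surrounding lists, colored by list, with filled points at an adjusted p-value under 0.05. Pim2 stands apart at 1.45, and the other filled points are Pim1 at 0.52 and Foxo3 at -0.41.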

How the data were processed

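The authors deposited 1 table of whole-number counts per Ensembl gene, not normalized, for 6 cDNT libraries. The submitters' processing notes name HISAT2, HTSeq and GRCm38 without versions, the paper's methods TopHat, Cufflinks and a UCSC annotation, and the labels and methods name different library kits, so which steps made the table is not given in the sources used here, nor is its use of strand. From these counts, edgeR 4.0.16 (R 4.3.3) gave TMM factors (0.9531 to 1.032) and the quasi-likelihood test on genes with 10 or more counts in 3 or more libraries, without a block, with Benjamini-Hochberg adjustment over all 14916 genes. A standard error is the log2 fold change divided by the square root of F. Alternatives were DESeq2 1.42.0, limma-voom (limma 3.58.1), upper-quartile normalization, 2 other filters, the replicate number as a block, splines on GC content and log2 length (5 degrees of freedom, values for 99.88% of tested genes) with and without the block, and each library left out. Symbols, coordinates and lengths come from GENCODE M21 (29332 of 29393 identifiers found).

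The members and lists were chosen with earlier results of these data known, and the motifs and the added scalings after seeing the counts. Named besides the members were pathway genes at an adjusted p-value under 0.05. In each list, the gene with the smallest p-value and that with the highest level per length were named too. So were Cycs and Cflar, which the paper measured, and Bcl2a1a, a near-identical copy of Bcl2a1d. The result for 1 gene under this rule is not reported here. TPM values were not used for levels, since a gene of 57 bases took 2.84 to 27.8% of the per-length total. At these depths 3 counts corresponded to 0.123 to 0.146 CPM, which covers counting error only. The steps were tested on simulated counts, with 200 genes of mixed level changed at each fold. An adjusted p-value under 0.05 in edgeR was reached by 0% of them at 1.2-fold, 40.5% at 1.5-fold and 73.5% at 2-fold. Changes of the members' size could thus be missed. How many would be missed at the members' levels was not simulated on its own, since the changed genes could lie far below those levels. Tables and plots were made with Python 3.11.15, pandas 2.3.3 and matplotlib 3.10.9.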

Additional observations from a re-analysis of the deposited data

How the results depend on the processing

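Of 140 values of the members' log2 fold changes under the alternatives, 128 kept their sign and their side of the threshold, 7 passed it (5 for Pmaip1 and 2 for Bbc3) and 5 changed sign, all of Bad. Bad was at -0.000367 with upper-quartile normalization and between -0.056 and 0.140 with a library left out. Where the text counts 0 members called, DESeq2 and the analysis with no filter on low counts each called 1, and these gave 2 members with an adjusted p-value under 0.05. The GC and length correction gave 1, with or without the block, and leaving out a library gave 0 to 1. Over all genes, 217 were called, against 356 in DESeq2, 639 with no filter, 344 with the GC and length correction and the block, 327 at any fold change, and 35 to 254 with a library left out, lowest without W/ IL-10 replicate 3. Of the pathway genes 1 was called, against 2 with the GC and length correction, with or without the block, and 1 to 2 with a library left out. With an adjusted p-value under 0.05 there were 3 of them, against 6 in DESeq2, 6 with no filter, 6 with the GC and length correction, 7 with that and the block, and 1 to 5 with a library left out. The causes were not tested. The 6 members without overlap were the same under library totals, upper-quartile and median-of-ratios scaling, and only Bcl2l1 and Bbc3, 2 members, remained under TPM, where 10.2% of all genes did not overlap. These scalings were chosen after seeing the data.

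The replicate numbers 1 to 3 stand in the labels of both groups. The correlations of the deviations of same-numbered libraries were 0.0524, -0.0573 and 0.114, not all above 0.1. Replicates 1 and 3 of each group correlated best with their own number, and replicate 2 of neither group did. Values this near 0 cannot decide whether same-numbered libraries were paired. With the number as a block, 196 genes, 0 members and 1 pathway gene were called, and Bad was at 0.03.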
